A study of Rattus norvegicus with 18 samples.

Results

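The integrin and laminin chains on this array were 35 gene names of the 35287 named by its non-control probes. They were chosen by name alone, as every name that begins with Itga, Itgb, Lama, Lamb or Lamc and goes on with the number or letter of a chain, and no measured value entered the choice. The members were 24 integrin chains, of which 7 are mostly made by leukocytes, and 11 laminin chains. They were carried by 56 probes, and each gene was described by the probe with the highest mean over all arrays. Of the 35 members, 33 passed the filter on dim probes and entered the test.

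RNA was measured in proximal sciatic nerve of adult male Sprague-Dawley rats, on 3 one-colour Agilent arrays at each of 0, 0.5, 1, 3, 6 and 9 h after the nerve was resected, 18 arrays in all. The 0 h arrays stand for nerve taken without a waiting time after resection, and no sham-operated nerve was analysed here. All groups shared the strain, the sex and the piece of nerve, the resection was done under anaesthesia, and the sources used here name no transgene. Whether 1 array held the RNA of 1 rat or of several is not given in the sources used here, so the P-values measure the spread between these arrays, which may be partly technical. The nerve piece holds Schwann cells (SCs), fibroblasts, vessels and leukocytes together, and fewer cells of a type cannot be told apart from less RNA per cell.

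Each level is the log2 processed signal of a probe minus the 75th percentile of its array, so that 0 is the brightness of that percentile and 1 unit is a doubling. Levels are compared between arrays for the same probe, and brightness serves only to choose the probe of a gene and to sort probes. Between 65.9 and 93.5% of spots were well above background on an array, and arrays of the same time-point correlated with r from 0.976 to 0.992. The 0 h and 0.5 h arrays were scanned on 1 day, the 1 h, 3 h and 6 h arrays and 2 of 9 h on another, and replicate 3 of 9 h on a further day. A difference from 0 h at 1 h or later therefore cannot be told apart from the day of scanning, and the contrasts of 3 h and 6 h with 1 h lie within 1 day. Each of the 9 slides held arrays of a single time-point, so in every contrast, also within a day, the time-point cannot be told apart from the slide. With the slide as a random block the correlation within slides was estimated at -0.0125, so this block left the fit nearly as it was. A change was called in limma where the P-value lay below 0.01 before adjustment and below 0.05 after the method of Benjamini and Hochberg, adjusted over all tested probes.

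Integrins are receptors for extracellular matrix and for adhesion molecules on other cells, each built from 1 α and 1 β chain. Leukocytes carry the β2 and β7 chains with partners such as αL, αM and αE, and use them to stop on activated endothelium and to leave the vessel. Laminins are trimers of an α, a β and a γ chain and form the core of the basal lamina around each SC and axon unit, where SCs hold them through α6β1, α6β4, α7β1 and dystroglycan. In peripheral nerve α2, β1 and γ1 make up the main laminin of the endoneurium, and its loss leaves axons poorly sorted and myelinated.

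Over the 6 time-points 17 of the 33 tested members were called in the F-test, where 34.6% of all 27201 tested gene names were. At 0.5 h 2 members were called against 0 h (background 5.99%), Lamb3 higher (background 4.27%) and Itga9 lower (background 1.72%). At 1 h Lamb3 alone was called (background 5.62%, and 3.59% for higher). At 3 h there were 4 members (background 14%), of which Itga5 and Lamb3 were higher (background 7.16%) and Itga4 and Itgae lower (background 6.85%). The number was 12 at 6 h (background 25%) and 16 at 9 h (background 31.1%). At 9 h 5 members were higher (background 15.8%) and 11 lower (background 15.4%), and at 6 h 3 were higher (background 12%) and 9 lower (background 13%). Against 1 h, within the same scan day, 3 members were called at 3 h (background 10.2%), all higher (background 5.58%, and 4.57% for lower), and 15 at 6 h (background 24%), the latter 4 higher (background 11.4%) and 11 lower (background 12.6%). At 9 h against 1 h there were 17 (background 25.4%), 6 higher (background 11.7%) and 11 lower (background 13.7%).

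The split of higher and lower calls moved with the scaling. At 0.5 h it was 0 and 3 after a shift to the array median, where Itga5 and Itgb1 were called lower and Lamb3 was not called. At 3 h against 1 h it was 3 and 1 after quantile normalization and 3 and 2 in the deposited matrix, in place of 3 and 0, and at 1 h against 0 h both gave 1 and 1. At 6 h against 0 h it was 4 and 6 after quantile normalization, 4 and 5 in the deposited matrix and 2 and 11 after the shift to the median. At 9 h against 1 h it was 7 and 8 after quantile normalization, 7 and 7 in the deposited matrix and 6 and 7 after the shift to the median, and with the scan day as a block 3 and 11. With the normexp background correction 49 of the 70 calls of single members in these contrasts were lost, which left 4 higher and 4 lower at 9 h against 0 h, 2 and 1 at 6 h against 1 h, and 2 and 2 at 9 h against 1 h. A call said below to have held under every alternative held with normexp as well, and for the others the loss with normexp is not always repeated.

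The heat map of the members shows where the movement lay. Of the leukocyte integrins Itgb2, Itgam, Itgb7 and Itgal read above their level of 1 h in the late arrays, and of the nerve laminins and their receptors Itgb4, Itga6, Lama2, Lama4, Lamb1 and Lamb2 read below it, with mean differences of less than 1 unit.

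**Figure D1:**
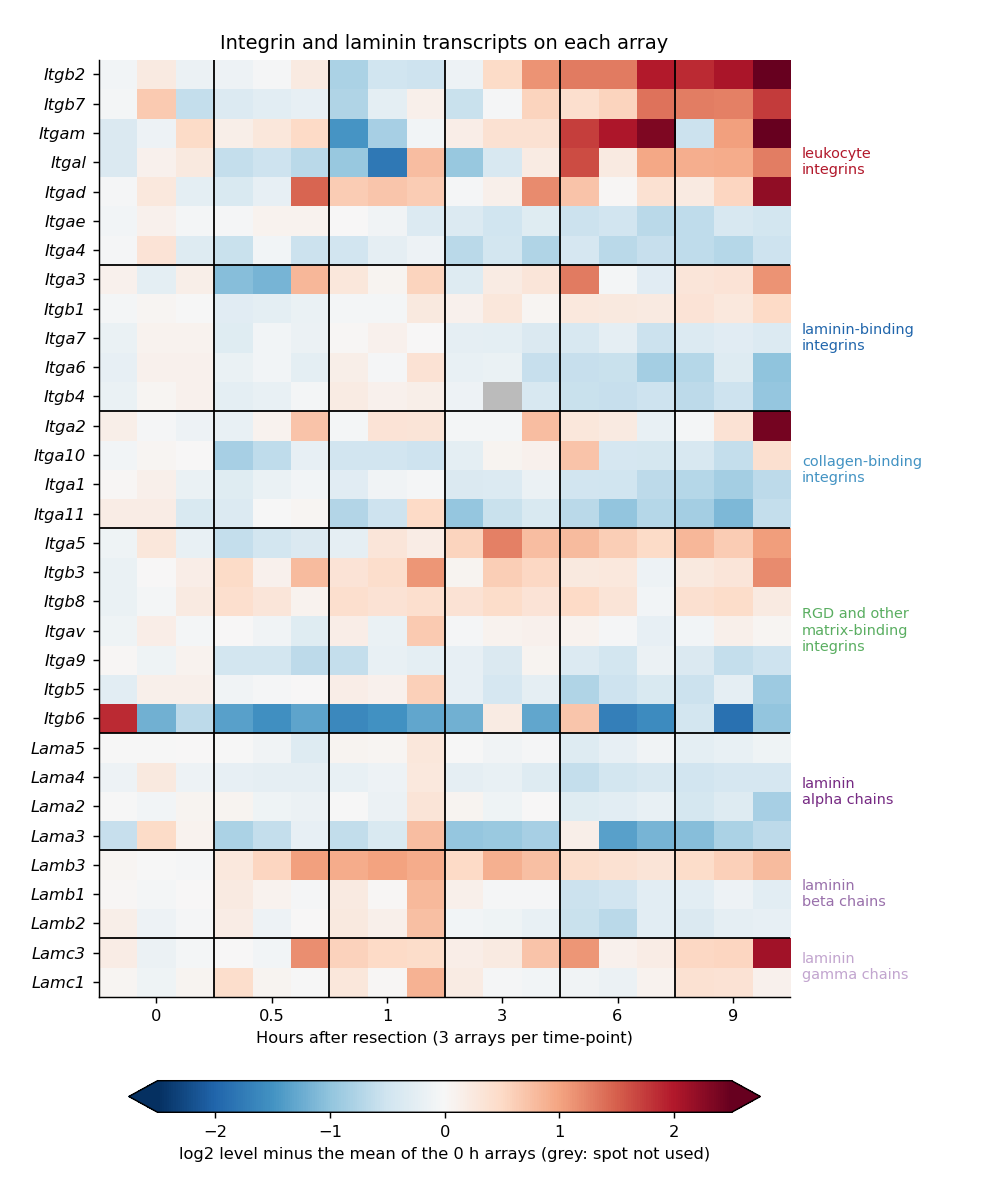
Each row is 1 of 32 tested members, grouped by family and ordered within it by the change at 9 h, and each column is 1 array, with 3 arrays per time-point. Colour gives the log2 level minus the mean of the 0 h arrays, with colours full at 2.5 units, and the grey cell is an Itgb4 spot that the scanner software marked as an outlier. Itgb2, Itgb7, Itgam and Itgal are redder at 6 and 9 h, apart from replicate 1 of 9 h for Itgam, which is blue, and Itgb4, Itga6, Itga1 and Lama4 bluer.

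Leukocyte integrins were followed first. Of their 7 chains on the array, 4 were called in the F-test (Itgb2, Itgam, Itgb7 and Itgae), where the background was 34.6%. At 6 h against 1 h 4 of the 7 were higher (background 11.4%) and 1 was lower (background 12.6%), and the median of the 7 was 1.07, beside -0.05 for all tested gene names. Against 0 h the median was 0.78 at 6 h and 1.04 at 9 h, beside 0.01 and 0.01 for all gene names. These moved with the scaling, to 0.49 and 0.78 after quantile normalization, 0.47 and 0.75 in the deposited matrix and 0.30 and 0.58 with normexp. They also moved with single arrays, to 0.48 at 6 h without 0 h replicate 3 and to 0.38 at 9 h without 9 h replicate 3. With normexp the median of the 7 against 1 h was -0.38 at 6 h and -0.34 at 9 h, where all gene names stood at -0.39 and -0.40, so under that correction the median of the group lay close to that of all gene names. Under the other 3 scalings the median at 6 h against 1 h was between 1.06 and 1.08. The chains did not form 1 cluster, and the median depended on which were counted. Without Itgal, whose dim probe was well above background on 1 of 3 arrays at 1 h and which was left out after its values were seen, the median of the other 6 was 0.40 at 6 h and 1.03 at 9 h against 1 h, and 0.58 and 1.05 against 0 h.

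The α chains share a short stretch just inside the membrane, and the probes of 4 of the 16 α chain members covered it. They are shown because αM and αL, the partners of β2, were read there at the same place of the message as α1 and α3 of the matrix receptors. Each is the 60-base probe of the file, 5′ to 3′ in the sense of the message, and capitals mark the 12 bases that code for glycine, phenylalanine, phenylalanine and lysine.
Itgam, chr1:187385032-187385565 (rn4, + strand): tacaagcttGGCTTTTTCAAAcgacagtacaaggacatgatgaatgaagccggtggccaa
Itgal, chr1:186594579-186597988 (rn4, + strand): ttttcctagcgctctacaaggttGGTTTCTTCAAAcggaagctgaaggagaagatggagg
Itga3, chr10:83730084-83730477 (rn4, - strand): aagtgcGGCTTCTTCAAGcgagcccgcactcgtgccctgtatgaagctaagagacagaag
Itga1, chr2:47107893-47112038 (rn4, - strand): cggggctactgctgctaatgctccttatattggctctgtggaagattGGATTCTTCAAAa
Each span is longer than 60 bases, so each probe joins exonic sequence from both sides of at least 1 intron. Without gaps, the probes of Itgam and Itgal matched at 34 of 60 bases, which was the closest pair among all 35 members, whose closest matches ranged from 23 to 34 bases with a median of 26.

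Itgb2 codes for β2, the common chain of all leukocyte β2 integrins. Its probe (chr20:11446736-11446795, rn4) read 0.69, 1.00 and 0.62 for 0 h, 0.65, 0.74 and 1.00 for 0.5 h, -0.01, 0.27 and 0.24 for 1 h, 0.65, 1.24 and 1.89 for 3 h, 2.07, 2.06 and 2.76 for 6 h, and 2.64, 2.80 and 3.43 for 9 h. All 6 arrays of 6 h and 9 h lay above all 12 earlier arrays, and the 3 arrays of 1 h were the lowest. The level at 9 h was 4.55-fold higher than at 0 h (2.19 ± 0.28, adjusted P = 8.99e-05, limma, here and below log2 change ± SE with 3 arrays a group). At 6 h it was 2.88-fold higher (1.52 ± 0.28, adjusted P = 0.00162). Against 1 h the rise was 2.13 ± 0.28, adjusted P = 0.00017 at 6 h and 2.79 ± 0.28, adjusted P = 1.67e-05 at 9 h. These 4 calls held under every alternative fitted, with 1.29 as the lowest change. At 3 h the rise over 1 h was 1.1 ± 0.28, adjusted P = 0.0258, and this call was lost without 1 h replicate 1 or 3 or 3 h replicate 2 or 3 (0.78 to 1.14) and with normexp.

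Itgam codes for αM, which with β2 forms the complement receptor Mac-1 of neutrophils and macrophages. It read -2.10, -1.85 and -1.24 for 0 h, -1.59, -1.45 and -1.24 for 0.5 h, -3.20, -2.56 and -1.81 for 1 h, -1.57, -1.36 and -1.36 for 3 h, -0.01, 0.29 and 0.60 for 6 h, and -2.26, -0.70 and 1.11 for 9 h. The 3 arrays of 6 h lay above all 12 earlier ones, while those of 9 h ran from the range of 1 h to the highest level of all. At 6 h Itgam was 7.05-fold higher than at 1 h (2.82 ± 0.60, adjusted P = 0.00379), a call kept under every alternative fitted. The rise over 0 h at 6 h (2.02 ± 0.60, adjusted P = 0.0223) was lost without 0 h replicate 1 or 2 or 6 h replicate 2 or 3 (1.84 to 2.03) and with normexp. At 9 h the change was 1.11 ± 0.60 against 0 h (adjusted P = 0.16), and 1.91 ± 0.60 against 1 h (adjusted P = 0.0285). The former rested on single arrays, since it was 1.94 and called without 9 h replicate 1 (adjusted P = 0.00897) and 0.25 without 9 h replicate 3. The latter fell to 1.04 without 9 h replicate 3, which was scanned on a day of its own, with an adjusted P of 0.111, and was also lost without 1 h replicate 1 or 2 or 9 h replicate 2 (1.57 to 1.95).

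Itgb7 codes for β7, the partner of α4 and αE in integrins of lymphocytes and of some myeloid cells. It read -0.60, 0.11 and -1.14 for 0 h, -0.88, -0.80 and -0.74 for 0.5 h, -1.31, -0.80 and -0.41 for 1 h, -1.11, -0.57 and 0.01 for 3 h, -0.12, 0.01 and 0.82 for 6 h, and 0.73, 0.71 and 1.21 for 9 h. The arrays of 9 h lay above all 12 arrays of 0 to 3 h, and those of 6 h overlapped 0 h. It was 2.69-fold higher at 9 h than at 0 h (1.43 ± 0.35, adjusted P = 0.00683) and 3.3-fold higher than at 1 h (1.72 ± 0.35, adjusted P = 0.00249), and both calls held under every alternative fitted. The rise from 1 h to 6 h (1.07 ± 0.35, adjusted P = 0.0368) was near the threshold and was lost with no filter on dim probes and in 11 of the 18 fits without 1 array, with the size between 0.78 and 1.29.

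Itgal codes for αL, which with β2 forms LFA-1, the receptor for ICAM-1 on lymphocytes and neutrophils. Its probe was dim, with 3, 0, 1, 1, 3 and 3 arrays well above background from 0 to 9 h in order. It read -5.89, -5.42 and -5.29 for 0 h, -6.12, -6.06 and -6.20 for 0.5 h, -6.49, -7.31 and -4.77 for 1 h, -6.49, -5.94 and -5.33 for 3 h, -3.91, -5.31 and -4.57 for 6 h, and -4.63, -4.60 and -4.25 for 9 h. The 9 h arrays lay above all 12 arrays of 0 to 3 h, and 1 array of 6 h did not. The rises over 1 h, where only 1 of 3 arrays was well above background and the base is therefore not firm, 1.60 ± 0.51, adjusted P = 0.0324 at 6 h and 1.70 ± 0.51, adjusted P = 0.0229 at 9 h, were lost without 1 h replicate 1 or 2, and at 6 h also without 6 h replicate 1 or 3, at 9 h without 9 h replicate 2 or 3 and with the scan day as a block (1.58). Without 1 array the size at 6 h lay between 1.03 and 2.31, that at 9 h between 1.14 and 2.41. With normexp they reversed to -0.61 and -0.62, where all gene names stood at -0.39 and -0.40. Against 0 h neither 6 h (0.94 ± 0.51, adjusted P = 0.189) nor 9 h (1.04 ± 0.51, adjusted P = 0.124) passed. Itgad, which codes for αD, another partner of β2 on macrophages, was called in no contrast, with changes from -0.28 to 0.99.

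Itga4 and Itgae were called lower. Itga4 codes for α4, which binds VCAM-1 and fibronectin and is also made by neural crest and developing SCs. It read -3.01, -2.64 and -3.30 for 0 h, -3.53, -3.05 and -3.51 for 0.5 h, -3.46, -3.20 and -3.11 for 1 h, -3.66, -3.44 and -3.73 for 3 h, -3.40, -3.65 and -3.57 for 6 h, and -3.62, -3.70 and -3.51 for 9 h. All 9 arrays from 3 h on lay below the 3 arrays of 0 h. It fell by 0.63 ± 0.17 at 3 h (adjusted P = 0.025), 0.56 ± 0.17 at 6 h (adjusted P = 0.0254) and 0.63 ± 0.17 at 9 h (adjusted P = 0.0115). Without 0 h replicate 2, the highest array, the changes were -0.46, -0.39 and -0.45 and none of the 3 was called. It was also lost at 3 h without 0 h replicate 1 or 3 h replicate 1 or 3, at 6 h without 0 h replicate 1 or 6 h replicate 2 or 3, and at 9 h without 9 h replicate 2. With normexp the change at 3 h reversed to 0.35, where all gene names stood at 0.44. Itga4 was not called against 1 h.

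Itgae codes for αE, which with β7 binds E-cadherin on epithelia. It read 1.55, 1.72 and 1.57 for 0 h, 1.59, 1.71 and 1.71 for 0.5 h, 1.62, 1.52 and 1.27 for 1 h, 1.27, 1.11 and 1.31 for 3 h, 1.07, 1.13 and 0.95 for 6 h, and 0.99, 1.22 and 1.16 for 9 h. The 9 arrays from 3 h on lay below all 6 arrays of 0 h and 0.5 h. Against 0 h Itgae fell by 0.57 ± 0.10 at 6 h (adjusted P = 0.00149), and at 9 h it fell by 0.49 ± 0.10 (adjusted P = 0.00286), both under every alternative fitted, and by 0.42 ± 0.10 and 0.35 ± 0.10 against 1 h (adjusted P = 0.00913 and 0.0231). Its second probe was called the other way, higher at 6 h and 9 h against 0 h. That probe was well above background on no array of 0 h and on all 3 arrays at 9 h alone. It entered the test only through 9 h, so no direction was read from it. The fall of the brightest Itgae probe at 3 h (-0.38 ± 0.10, adjusted P = 0.0272) was lost without 0 h replicate 2 or 3 or 3 h replicate 1 or 2 (-0.40 to -0.32). That at 9 h against 1 h was lost without 1 h replicate 1 or 2 or 9 h replicate 1 (-0.32 to -0.27) and after a shift to the median (-0.37).

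**Figure D2:**
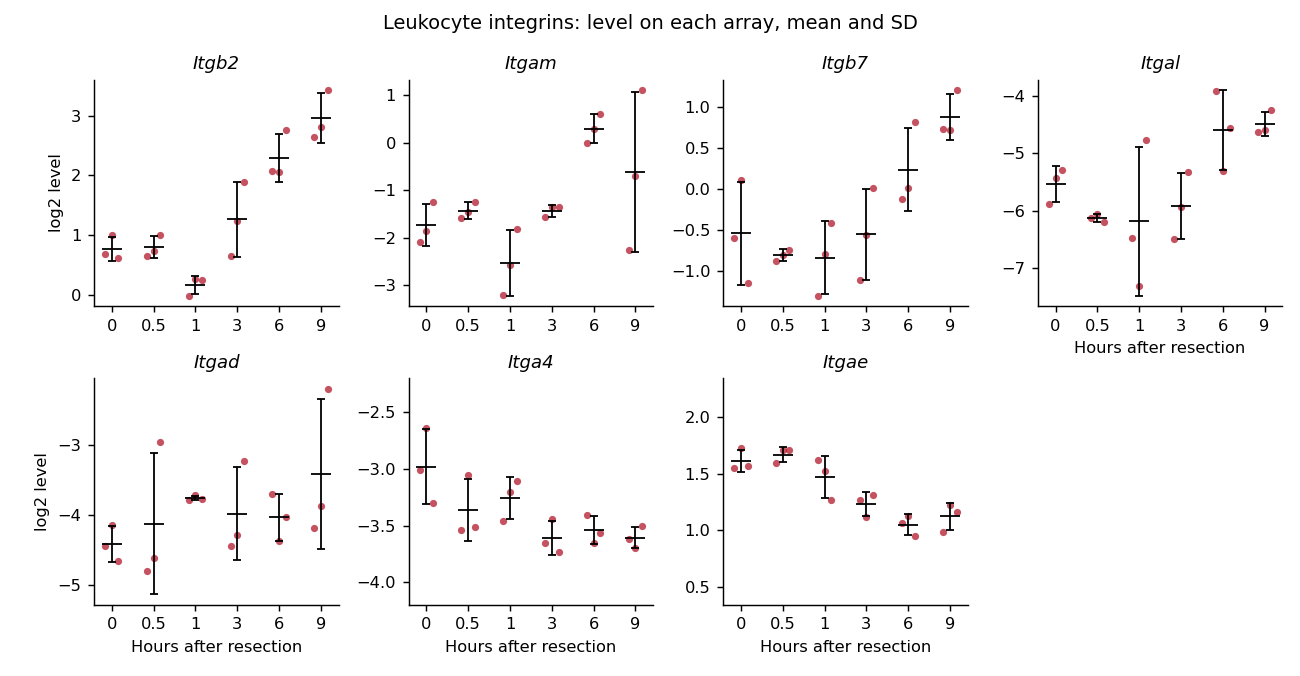
Levels of the 7 leukocyte integrin chains on each array (points, log2 level) by hours after resection, with the mean and SD of the 3 arrays of each time-point (bars). Itgb2 rises from 0.62 to 1.00 at 0 h to 2.64 to 3.43 at 9 h, Itgam is most scattered at 9 h, from -2.26 to 1.11, and Itga4 and Itgae lie lower from 3 h on. The vertical scale differs between panels.

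Leukocyte markers moved beside these chains. Of 11 tested neutrophil markers 10 were higher at 6 h and 10 at 9 h against 0 h (background 12% and 15.8%). Some of them passed the filter on dim probes only through times after 0 h, and of the 7 that were well above background on all 3 arrays of 0 h 6 were higher at both times. S100a8, a calcium-binding protein of neutrophils, rose by 5.89 ± 0.37 at 6 h (adjusted P = 2.69e-07). The summed level of the neutrophil list, in units of the 75th percentile, went from 2.01 to 3.03 at 0 h, over 5.03 to 6.60 at 1 h, to 17.4 to 25.1 at 6 h and 20.7 to 24.7 at 9 h. At 0 h Fpr1, Mmp8, Mmp9 and Cd177 of that list were not well above background on any array. Mmp8, the neutrophil collagenase, was at least 27.2-fold higher at 6 h than at 0 h, taking the dim level of each 0 h array as the higher of its own signal and the lowest signal well above background.

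Of 13 macrophage markers 4 were higher and 1 was lower at 6 h against 0 h (background 12% and 13%). The sum was 182 to 214 at 0 h, 186 to 203 at 6 h and 178 to 226 at 9 h. Of 7 pan-leukocyte markers 3 were higher at 6 h and 5 at 9 h (background 12% and 15.8%). Among them was Ptprc, the common leukocyte antigen CD45, at 1.39 ± 0.25 and 1.42 ± 0.25 (adjusted P = 0.00133 and 0.000828). The sum of the 7 was 50.9 to 67.8 at 0 h, 50.2 to 59.5 at 6 h and 58.1 to 79.4 at 9 h. Of 10 tested T and natural killer cell markers 2 were higher at 6 h and 3 at 9 h. Well above background on all 3 arrays of 0 h were 7 of these 10, and 2 of the 7 were higher at each time. Their sum for all listed markers at 0 h was 1.41 to 1.68 and that at 9 h 1.71 to 2.95, and Cd3e was not well above background at 0 h. Platelet markers were higher in 4 of 7 at 6 h and 2 of 7 at 9 h, with a sum of 10.7 to 11.7 at 1 h and 7.85 to 36.8 at 6 h. From 1 h to 6 h 8 of the neutrophil markers were higher and 1 was lower (background 11.4% and 12.6%). In that contrast 6 of the macrophage markers were higher and 1 was lower, and 4 of the pan-leukocyte markers were higher. The part of these cells in the change of the leukocyte integrins was not tested.

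Laminin-binding integrins formed the glial counterpart. Their 5 chains on the array were all tested, 4 were called in the F-test (background 34.6%), and the median change was -0.43 at 6 h against 1 h and -0.33 at 9 h against 0 h. Of the 5, 3 were lower at 6 h and at 9 h against 0 h (background 13% and 15.4%). Again 3 were lower at 6 h against 1 h (background 12.6%). In these contrasts Itgb1 alone was higher, at 9 h against 0 h (background 15.8%).

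Itgb4 codes for β4, which pairs with α6 on the outer surface of myelinating SCs. Its probe (chr10:106116523-106116582, rn4) read 7.51, 7.74 and 7.80 for 0 h, 7.44, 7.49 and 7.62 for 0.5 h, 7.89, 7.78 and 7.82 for 1 h, 7.55 and 7.28 for 3 h, 7.13, 7.09 and 7.16 for 6 h, and 7.03, 7.16 and 6.72 for 9 h. At 3 h only 2 arrays were used, since the scanner software marked the third spot as an outlier. All 6 arrays of 6 h and 9 h lay below all 11 earlier values. Against 0 h Itgb4 fell by 0.55 ± 0.12 at 6 h (adjusted P = 0.00453), and at 9 h it fell by 0.71 ± 0.12 (adjusted P = 0.000727), the latter 1.64-fold lower. Against 1 h it fell by 0.71 ± 0.12 and 0.86 ± 0.12 (adjusted P = 0.0011 and 0.000219). Both calls at 9 h held under every alternative fitted, though the size went down to -0.45 against 0 h in the deposited matrix and to -0.55 against 1 h with normexp, and at 6 h against 1 h to -0.38 in the deposited matrix. The change at 6 h against 0 h was -0.24 after quantile normalization and -0.25 in the deposited matrix, past the threshold in neither.

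Itga6 codes for α6, the partner of β1 and β4. It read 0.12, 0.42 and 0.43 for 0 h, 0.17, 0.26 and 0.07 for 0.5 h, 0.47, 0.29 and 0.69 for 1 h, 0.14, 0.16 and -0.24 for 3 h, -0.25, -0.24 and -0.52 for 6 h, and -0.39, 0.01 and -0.68 for 9 h. The arrays of 6 h and 9 h lay below all 9 arrays of 0 to 1 h. Itga6 fell by 0.66 ± 0.17 at 6 h (adjusted P = 0.012) and 0.68 ± 0.17 at 9 h (adjusted P = 0.00805) against 0 h, and by 0.82 ± 0.17 and 0.84 ± 0.17 against 1 h (adjusted P = 0.00377 and 0.00266). The call at 6 h against 0 h was lost without 6 h replicate 3 (-0.57, adjusted P = 0.0496, with an unadjusted P above its own threshold), and the other 3 held under every alternative fitted. Its second probe fell as well, by 0.74 at 9 h against 0 h and by 0.83 at 6 h against 1 h.

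Itga7 codes for α7, a laminin receptor of SCs and of skeletal muscle. It read 5.70, 5.96 and 5.96 for 0 h, 5.57, 5.80 and 5.73 for 0.5 h, 5.90, 5.97 and 5.89 for 1 h, 5.65, 5.63 and 5.51 for 3 h, 5.46, 5.65 and 5.34 for 6 h, and 5.52, 5.59 and 5.52 for 9 h. The arrays of 6 h and 9 h lay below all 6 arrays of 0 h and 1 h and overlapped 0.5 h. The fall was small, -0.39 ± 0.10 at 6 h and -0.33 ± 0.10 at 9 h against 0 h (adjusted P = 0.0116 and 0.0215), and -0.43 ± 0.10 and -0.37 ± 0.10 against 1 h (adjusted P = 0.0062 and 0.0127). After quantile normalization the changes against 0 h were -0.22 and -0.16 and no longer called, nor was that at 9 h against 1 h (-0.25), and the same 3 calls were lost in the deposited matrix. After a shift to the median both calls against 1 h were lost (-0.43 and -0.40). The calls against 0 h were also lost without 6 h replicate 3 at 6 h (-0.31), and without 0 h replicate 2 or 3 or 9 h replicate 1 or 3 at 9 h (-0.32 to -0.28). The second, dimmer probe of Itga7 changed by 0.34 at 9 h against 0 h, without a call, and was called at 6 h against 1 h (-0.71). The 11 skeletal muscle markers varied widely, with a summed level of 126 to 1862 at 0 h and 5.82 to 505 at 6 h. Of them limma called none at 6 h or 9 h (0 at an unadjusted P-value under 0.05). Their median change was -3.25 at 6 h and -3.70 at 9 h against 0 h, and 1.46 at 6 h against 1 h. The lack of calls therefore does not stand for a small difference. The part of muscle in the change of Itga7 was not tested.

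Itgb1 codes for β1, the shared chain of most matrix receptors. It read 4.23, 4.33 and 4.26 for 0 h, 3.99, 4.02 and 4.10 for 0.5 h, 4.23, 4.22 and 4.52 for 1 h, 4.38, 4.55 and 4.32 for 3 h, 4.53, 4.52 and 4.50 for 6 h, and 4.62, 4.54 and 4.77 for 9 h. The 9 h arrays lay above all arrays of 0 h, 0.5 h and 1 h. The rise was small, 0.37 ± 0.10, adjusted P = 0.00961 against 0 h and 0.32 ± 0.10, adjusted P = 0.0241 against 1 h. After a shift to the array median it was 0.20 against 0 h, where all gene names stood at -0.16, and not called, and it was lost without 9 h replicate 3 (0.31, adjusted P = 0.0461, with an unadjusted P above its own threshold). The rise over 1 h was lost without 1 h replicate 1 or 2 or 9 h replicate 1 or 3 (0.26 to 0.33), after a shift to the median (0.30) and with the scan day as a block (0.26). A second Itgb1 probe, printed as 10 spots on each array with an SD between spots of 0.03 to 0.10, was called higher at 3 h (0.67), 6 h (0.62) and 9 h (0.50) against 0 h. That probe was also called higher at 3 h (0.63), 6 h (0.59) and 9 h (0.46) against 1 h. Itga3, the α3 laminin receptor, was dim and was called in no contrast.

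**Figure D3:**
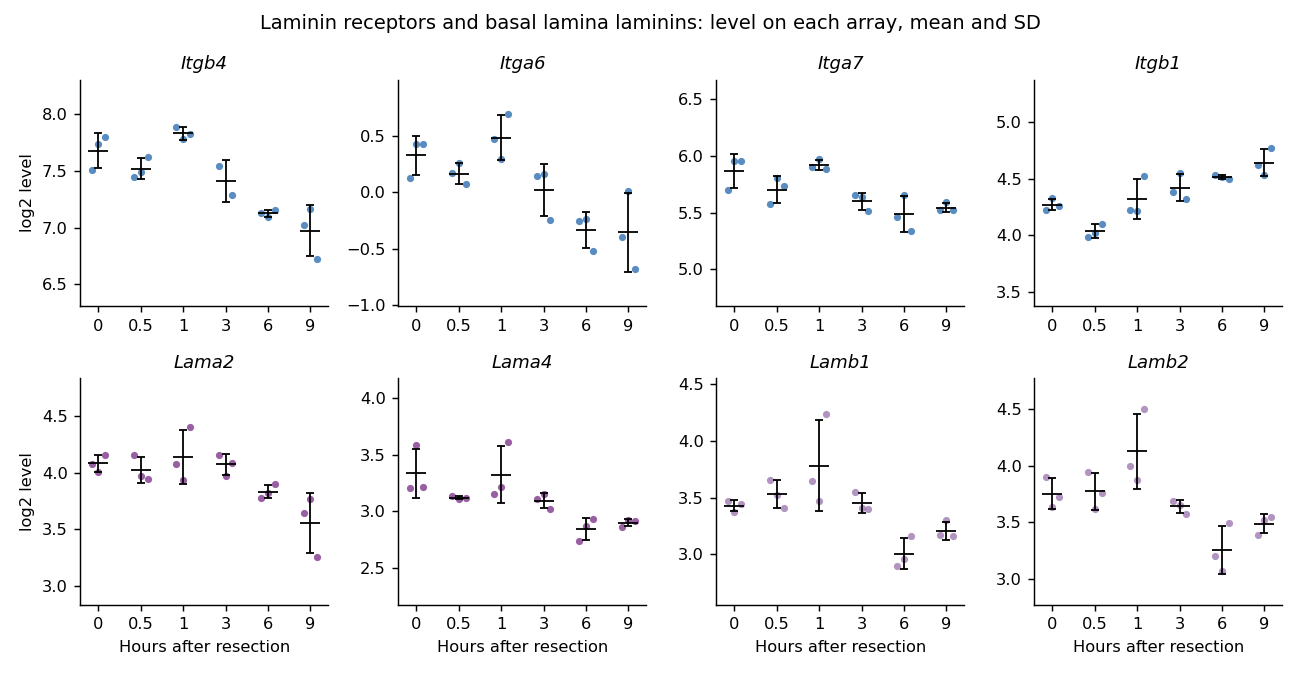
Levels of 4 laminin receptor chains (upper row) and 4 laminin chains (lower row) on each array (points, log2 level) by hours after resection, with mean and SD (bars, n = 3, for Itgb4 at 3 h n = 2). Itgb4 falls from 7.51 to 7.80 at 0 h to 6.72 to 7.16 at 9 h and Itgb1 rises from 4.23 to 4.33 to 4.54 to 4.77, and the third array of 1 h is the highest of all for Lama2, Lama4, Lamb1 and Lamb2. The vertical scale differs between panels.

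Among the 11 tested integrins for collagen and for other matrix, 1 of 4 collagen receptors and 2 of 7 RGD and other matrix receptors were called in the F-test, shares of no more than the 34.6% of all gene names. RGD stands for the arginine, glycine and aspartate that fibronectin and vitronectin offer to these receptors. Itga5 codes for α5, the classical fibronectin receptor. It read -1.06, -0.68 and -1.13 for 0 h, -1.55, -1.42 and -1.32 for 0.5 h, -1.18, -0.65 and -0.77 for 1 h, -0.40, 0.30 and -0.18 for 3 h, -0.16, -0.35 and -0.49 for 6 h, and -0.13, -0.32 and 0.08 for 9 h. All 9 arrays from 3 h on lay above all 9 arrays of 0 to 1 h. Itga5 was 1.82-fold higher at 3 h (0.86 ± 0.19, adjusted P = 0.00895) and 1.78-fold higher at 9 h (0.83 ± 0.19, adjusted P = 0.00452) than at 0 h, both under every alternative fitted. The rise at 6 h was 0.62 ± 0.19, adjusted P = 0.0267, and it was lost without 0 h replicate 1 or 3 or 6 h replicate 1 or 2 (0.54 to 0.63) and after a shift to the median (0.48). Against 1 h it rose by 0.77 ± 0.19 at 3 h and, at 9 h, by 0.74 ± 0.19 (adjusted P = 0.0203 and 0.0103), the first lost without 1 h replicate 1 or 3 h replicate 2 (0.61 and 0.58) and the second without 1 h replicate 1 (0.59). Of the other 2 Itga5 probes, 1 was called higher at 3 h (1.14) and 9 h (0.89) against 0 h, and the other was not called (1.1 and 0.94).

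Itga1 codes for α1, a collagen and laminin receptor. It read 4.01, 4.10 and 3.80 for 0 h, 3.67, 3.80 and 3.90 for 0.5 h, 3.69, 3.87 and 3.95 for 1 h, 3.61, 3.64 and 3.83 for 3 h, 3.50, 3.47 and 3.31 for 6 h, and 3.25, 3.12 and 3.32 for 9 h. All 6 arrays of 6 h and 9 h lay below all 12 earlier ones. Itga1 fell by 0.54 ± 0.11 at 6 h and 0.74 ± 0.11 at 9 h against 0 h (adjusted P = 0.00243 and 0.000205), the latter 1.67-fold lower and called under every alternative fitted. Against 1 h it fell by 0.41 ± 0.11 and 0.61 ± 0.11 (adjusted P = 0.013 and 0.001), the former lost without 6 h replicate 3 (-0.35).

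Itgb5 codes for β5, which with αv binds vitronectin. It read 2.09, 2.48 and 2.49 for 0 h, 2.27, 2.31 and 2.36 for 0.5 h, 2.51, 2.45 and 2.95 for 1 h, 2.15, 1.93 and 2.12 for 3 h, 1.61, 1.83 and 1.96 for 6 h, and 1.80, 2.13 and 1.43 for 9 h. The 6 h arrays lay below all 9 arrays of 0 to 1 h, and 9 h overlapped 0 h. Against 1 h it fell by 0.84 ± 0.18 at 6 h and, at 9 h, by 0.85 ± 0.18 (adjusted P = 0.00396 and 0.00311), under every alternative fitted except normexp. Against 0 h the changes were -0.55 ± 0.18 and -0.56 ± 0.18 (adjusted P = 0.0346 and 0.0263). The first was lost in 10 of 18 fits without 1 array and with the replicate number as a block, after quantile normalization (-0.48), in the deposited matrix (-0.47) and with no filter on dim probes. The second was lost after quantile normalization (-0.49) and in the deposited matrix (-0.48), fell to -0.38 without 9 h replicate 3 and was also lost without 0 h replicate 2 or 3, 0.5 h replicate 2 or 9 h replicate 1. The second Itgb5 probe was called lower at 6 h against 1 h (-1.33) and not against 0 h.

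Others of these receptors were called in 1 or 2 contrasts or in none. Itga9, the α9 receptor for tenascin-C, changed by -0.52 ± 0.14 at 0.5 h and -0.49 ± 0.14 at 9 h against 0 h (adjusted P = 0.0403 and 0.0141), the first lost without any 1 of the 6 arrays compared or 3 h replicate 1, after quantile normalization, in the deposited matrix and with no filter on dim probes, and the second without 0 h replicate 1 or 3 or 9 h replicate 2 or 3 (-0.47 to -0.43). Itga11, the α11 collagen receptor of fibroblasts, changed by -0.85 ± 0.28 at 9 h (adjusted P = 0.0279), a call lost in 7 of 18 fits without 1 array. Itgav, the αv chain of most RGD receptors, and Itgb8, its β8 partner, were called in no contrast. Itgav had changes between -0.27 and 0.22, and Itgb8 between -0.15 and 0.40.

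**Figure D4:**
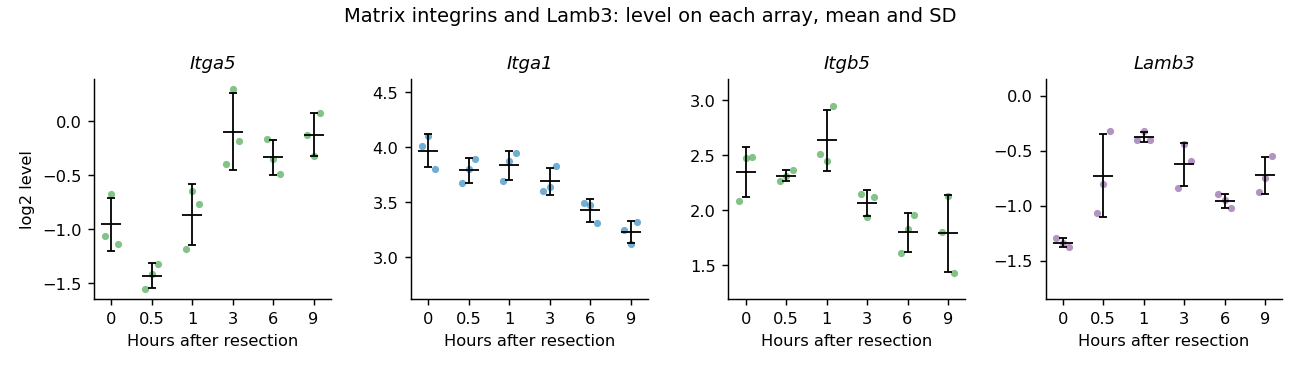
Levels of Itga5, Itga1, Itgb5 and Lamb3 on each array (points, log2 level) by hours after resection, with mean and SD of 3 arrays (bars). Itga5 lies at -0.49 or above from 3 h on and at -0.65 or below before, Itga1 falls to 3.12 to 3.32 at 9 h, and Lamb3 is lowest at 0 h. The vertical scale differs between panels.

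Of the 10 tested laminin chains, 6 were called in the F-test (background 34.6%). At 6 h against 1 h 5 of the 10 were lower (background 12.6%) in limma and none was higher (7 and 1 at an unadjusted P-value under 0.05), and the median of the 10 was -0.46, beside -0.05 for all gene names and between -0.45 and -0.43 after quantile normalization, after a shift to the median and in the deposited matrix. With normexp it was -0.42, where all gene names stood at -0.39, so under that correction the laminins lay close to all gene names. Without 1 h replicate 3, the highest of all arrays for Lama2, Lama4, Lamb1 and Lamb2, the median of the 10 was -0.28, beside -0.06 for all gene names. At 9 h against 1 h 5 were again lower (background 13.7%) in limma and none higher (background 11.7%), with 6 and 1 unadjusted. Against 0 h the counts were smaller and near the background, 2 lower at 6 h (background 13%), and 2 lower and 1 higher at 9 h (background 15.4% and 15.8%), with medians of -0.23 and -0.20.

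Lama2 codes for α2, the chain of the main SC laminin. Its probe (chr1:18870086-18870145, rn4) read 4.08, 4.01 and 4.16 for 0 h, 4.16, 3.98 and 3.94 for 0.5 h, 4.07, 3.94 and 4.41 for 1 h, 4.16, 3.97 and 4.08 for 3 h, 3.78, 3.82 and 3.90 for 6 h, and 3.65, 3.77 and 3.26 for 9 h. All 6 arrays of 6 h and 9 h lay below all 12 earlier ones. Lama2 fell by 0.52 ± 0.14 at 9 h against 0 h (adjusted P = 0.00926) and by 0.58 ± 0.14 against 1 h (adjusted P = 0.00596). The first was -0.38 without 9 h replicate 3 and was lost there, and was -0.39 after quantile normalization and -0.38 in the deposited matrix, again without a call. Its other 3 probes were each called lower at 9 h against 0 h, with changes of -0.64, -0.54 and -0.53. In the same order they were called lower at 6 h against 1 h (-0.50, -1.02 and -0.58). The brightest probe of Lama2 was not called there, so in that contrast the answer depends on the probe.

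Lama4 codes for α4 laminin, of perineurium, endoneurium and vessels. It read 3.21, 3.58 and 3.21 for 0 h, 3.13, 3.10 and 3.12 for 0.5 h, 3.15, 3.21 and 3.61 for 1 h, 3.11, 3.15 and 3.02 for 3 h, 2.74, 2.87 and 2.93 for 6 h, and 2.86, 2.92 and 2.92 for 9 h. All 6 arrays of 6 h and 9 h lay below all 12 earlier ones. It fell by 0.49 ± 0.12 at 6 h and 0.43 ± 0.12 at 9 h against 0 h (adjusted P = 0.00953 and 0.0143), the former not called in the deposited matrix (-0.39) and the latter lost without 0 h replicate 2 (-0.31) or 9 h replicate 1 (-0.42), after quantile normalization (-0.34) and in the deposited matrix (-0.32). Against 1 h it fell by 0.48 ± 0.12 and 0.42 ± 0.12 (adjusted P = 0.0113 and 0.0194), the latter lost without 1 h replicate 3 (-0.28) or 9 h replicate 1 (-0.40), after quantile normalization (-0.39), after a shift to the median (-0.45) and in the deposited matrix (-0.37). The other 2 Lama4 probes were not called against 0 h (at 6 h -0.38 and -0.29, for 9 h -0.32 and -0.16), and both were called lower at 6 h against 1 h (-0.66 and -0.55). Lama5, the α5 chain of vessel and nerve basal laminae, changed by -0.34 ± 0.10 and -0.32 ± 0.10 against 1 h (adjusted P = 0.0195 and 0.0268), both lost without 1 h replicate 3 (-0.26 and -0.24), the first also without 6 h replicate 1 (-0.28) and the second without 9 h replicate 1 or 2 (-0.28 and -0.31). Both Lama5 calls were also lost after quantile normalization (-0.30 and -0.27), after a shift to the median (-0.34 and -0.34) and in the deposited matrix (-0.29 and -0.26). One other Lama5 probe was called lower at 6 h against 1 h (-0.66) and the third in no contrast.

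Lamb1 and Lamb2 code for the β1 and β2 laminin chains of nerve and vessel. Lamb1 read 3.47, 3.38 and 3.45 for 0 h, 3.66, 3.52 and 3.41 for 0.5 h, 3.64, 3.47 and 4.24 for 1 h, 3.55, 3.41 and 3.40 for 3 h, 2.90, 2.96 and 3.16 for 6 h, and 3.17, 3.30 and 3.16 for 9 h. All 6 arrays of 6 h and 9 h lay below all 12 earlier ones, and the third array of 1 h stood well above the rest. Lamb1 fell by 0.78 ± 0.15 at 6 h and 0.58 ± 0.15 at 9 h against 1 h (adjusted P = 0.00248 and 0.0127). Without 1 h replicate 3 the changes were -0.55 and -0.35 and still called, while that at 9 h was lost in the deposited matrix (-0.51) and both were lost with normexp. Against 0 h they were -0.42 ± 0.15 and -0.22 ± 0.15, not called (adjusted P = 0.055 and 0.277). The change at 6 h was called without 1 h replicate 2 or 3, after a shift to the median (-0.57) and with a trended and robust prior.

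Lamb2 read 3.90, 3.63 and 3.72 for 0 h, 3.94, 3.62 and 3.76 for 0.5 h, 4.0, 3.88 and 4.50 for 1 h, 3.69, 3.66 and 3.58 for 3 h, 3.20, 3.07 and 3.49 for 6 h, and 3.39, 3.52 and 3.55 for 9 h. Its 6 arrays of 6 h and 9 h were again the lowest of the 18, and again the third array of 1 h was the highest. It fell by 0.87 ± 0.15 and 0.64 ± 0.15 against 1 h (adjusted P = 0.0012 and 0.00695), and without 1 h replicate 3 the changes were -0.68 and -0.45, still called. Against 0 h it fell by 0.50 ± 0.15 at 6 h (adjusted P = 0.0275), lost without 0 h replicate 1 or 3 or 6 h replicate 1 or 2 (-0.51 to -0.41) after quantile normalization (-0.39) and in the deposited matrix (-0.37), and the change at 9 h was -0.27 ± 0.15 (adjusted P = 0.189).

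Lamb3 codes for β3, a chain of an epithelial laminin. It read -1.30, -1.34 and -1.37 for 0 h, -1.06, -0.80 and -0.32 for 0.5 h, -0.40, -0.32 and -0.40 for 1 h, -0.84, -0.44 and -0.59 for 3 h, -0.90, -0.95 and -1.02 for 6 h, and -0.88, -0.74 and -0.55 for 9 h. All 15 later arrays lay above the 3 arrays of 0 h. Lamb3 was the only member called at 1 h, 1.95-fold higher than at 0 h (0.96 ± 0.16, adjusted P = 0.00297), and it was higher at 0.5 h (0.61 ± 0.16, adjusted P = 0.0364), 3 h (0.71 ± 0.16, adjusted P = 0.00811) and 9 h (0.61 ± 0.16, adjusted P = 0.00796). The calls at 1, 3 and 9 h held under every alternative fitted, while that at 0.5 h was lost without 0 h replicate 1, 2 or 3, 0.5 h replicate 2 or 3 or 6 h replicate 2 (0.40 to 0.65) and after a shift to the median (0.45). From 1 h to 6 h it fell by 0.58 ± 0.16 (adjusted P = 0.0143). The other 3 Lamb3 probes, all dimmer, were not called against 0 h. At 1 h they changed by 1.15, 1.74 and 0.09, the first of them well above background on only 1 of 3 arrays at both times, and in the first and second of them all 3 arrays of 1 h lay above those of 0 h. In the same order they changed by 0.44, -0.48 and -0.78 at 9 h, so the calls rest on 1 probe.

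Lamc1, the γ1 chain of the main nerve laminin, was called in no contrast at its brightest probe, with changes from -0.44 to 0.39. Its second probe was called lower at 6 h (-0.58) and 9 h (-0.65) against 0 h and at 6 h against 1 h (-0.96), so for Lamc1 the answer depends on the probe.

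The other members stayed without a call. Of the 33 tested, 11 were called in no contrast, namely Itga10, Itga2, Itga3, Itgad, Itgav, Itgb3, Itgb6, Itgb8, Lama3, Lamc1 and Lamc3, with changes from -1.48 to 1.05 and adjusted P-values of 0.0549 or higher. Itgb6, of epithelia, gave the lowest of these changes, at 1 h against 0 h, where 1 array of 0 h read -0.34 and the other 2 -3.42 and -2.87. Itga8 and Lama1 were not tested, since they were well above background on too few arrays at every time-point. Some of the 11 passed under an alternative, such as Itga10 at 0.5 h (-0.79), 1 h (-0.69) and 9 h (-0.50) and Lama3 at 9 h (-1.10) against 0 h after quantile normalization. Without 6 h replicate 1 Lama3 was called lower at 6 h against 0 h (-1.26), and without 1 h replicate 2 Itgav and Lamc1 were called lower at 6 h against 1 h (-0.46 and -0.62). Itgb8 was called higher at 9 h against 0 h without 0 h replicate 3 (0.47) or 6 h replicate 3 (0.37).

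**Figure D5:**
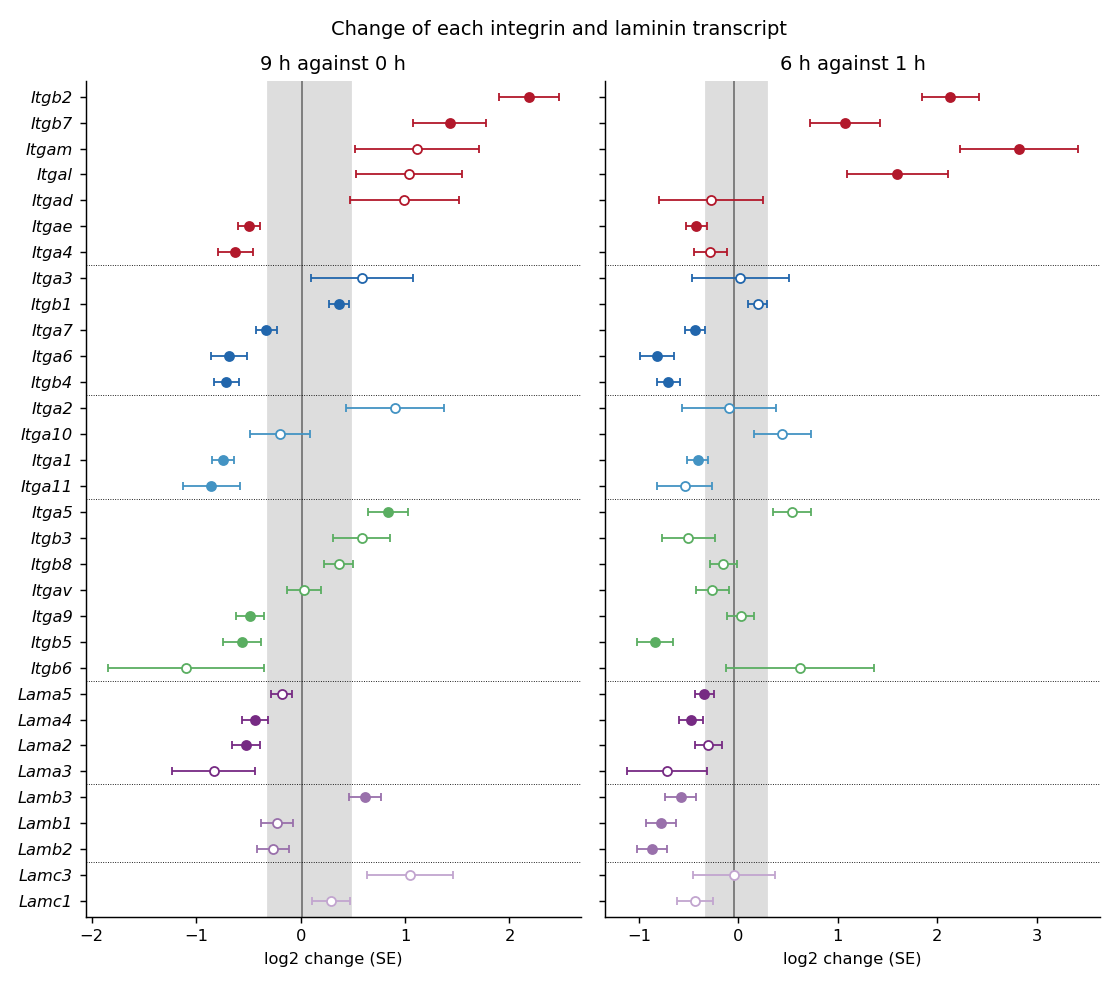
Log2 change of 32 tested members at 9 h against 0 h (left) and at 6 h against 1 h (right), with SE, filled where called and open where not, coloured by family. The grey band spans the quartiles of all tested gene names and the grey line their median. Itgb2 and Itgb7 lie to the right of the band in both panels, and Itgb4, Itga6, Itga1 and Lama4 to its left.

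Set side by side against 1 h, the median of the leukocyte chains lay above that of all gene names and those of the other families below it. The 7 leukocyte chains had a median of 1.07 at 6 h and 1.70 at 9 h against 1 h, the 16 other tested integrins -0.21 and -0.10, and the 10 laminins -0.46 and -0.38, where all gene names stood at -0.05 and -0.00. Against 0 h the medians were 0.78 and 1.04, -0.18 and -0.26, and -0.23 and -0.20, beside 0.01 and 0.01. The leukocyte median at 9 h was in both contrasts the value of Itgal, and without Itgal it was 1.03 against 1 h. After quantile normalization, after a shift to the median and in the deposited matrix the leukocyte median also lay above that of all gene names and the other 2 below it in these 4 contrasts, though for the laminins against 0 h the distance was small, with -0.13 beside -0.09 at 6 h and -0.11 beside -0.07 at 9 h after quantile normalization, and -0.12 beside -0.09 and -0.10 beside -0.06 in the deposited matrix. Without 1 h replicate 3 the other integrins stood at -0.09 at 6 h and 0.01 at 9 h against 1 h, beside -0.06 and -0.02 for all gene names, and without 9 h replicate 3 the leukocyte chains at 9 h against 1 h stood at 1.04. With normexp, which moved all gene names to -0.39 and -0.40 against 1 h, the medians there were -0.38 and -0.34 for the leukocyte chains, -0.56 and -0.55 for the other integrins and -0.42 and -0.34 for the laminins, so that only the other integrins lay clearly below all gene names. Within the leukocyte family the chains did not move alike, since Itga4 and Itgae were called lower at 6 and 9 h against 0 h, and within the other integrins Itga5 and Itgb1 were called higher at 9 h. Bright probes in general read slightly lower, and the brightest sixth of gene names, which holds 10 members, had a median of -0.16 at 6 h and -0.16 at 9 h against 0 h, and of -0.09 and -0.10 against 1 h. These 10 were Itga1, Itga7, Itgb1, Itgb4, Itgb5, Lama2, Lama4, Lama5, Lamb1 and Lamb2. The dimmest sixth, with Itgal, Itga2 and Itga3, had medians of 0.51 and 0.50 against 0 h.

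Some markers of the cells that make laminin and its receptors were called as well. Within 1 scan day, at 6 h against 1 h, 1 of 15 SC markers rose and 7 fell (background 11.4% and 12.6%). Their median was -0.43, beside -0.43 for the laminin-binding integrins and -0.46 for the laminins. Against 0 h, 2 of the 15 SC markers rose and 2 fell at 6 h (background 12% and 13%). At 9 h 2 rose and 5 fell (background 15.8% and 15.4%). Their summed level was 865 to 1026 at 0 h, 964 to 1167 at 1 h, 735 to 764 at 6 h and 685 to 781 at 9 h. Gfap, an intermediate filament of immature and reactive SCs, rose by 3.55 ± 0.19 at 9 h (adjusted P = 4.03e-08), and Mag, a myelin adhesion molecule, changed by -0.90 ± 0.18 (adjusted P = 0.0023). Of 8 fibroblast markers 4 were lower and 1 higher at 6 h (background 13% and 12%) and 6 lower at 9 h (background 15.4%). Their sums were 1305 to 1392 at 0 h, 1007 to 1050 at 6 h and 904 to 962 at 9 h. Of 9 endothelial markers 2 were lower at 6 h and 3 at 9 h (background 13% and 15.4%). Their sums were 59.3 to 63.4 at 0 h, 46.4 to 53.8 at 6 h and 45.5 to 47.5 at 9 h. The fibroblast markers at 6 h against 1 h had 1 higher and 3 lower (background 11.4% and 12.6%), with a median of -0.17. In that contrast the endothelial markers had 2 lower, with a median of -0.27. Of the 4 tested adipocyte markers limma called none at these times (0 at an unadjusted P-value under 0.05), and their sum at 0 h was 53.2 to 93.3 and that at 6 h 83.2 to 102. The part of these cells in the changes of the laminins and their receptors was not tested.

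The partners of the integrins were taken from 3 lists. Inside the cell, 6 of 20 tested activators and adaptors were called in the F-test (background 34.6%), 2 were higher (background 12%) and 2 lower (background 13%) at 6 h against 0 h, and 4 were higher (background 15.8%) and 1 lower (background 15.4%) at 9 h, so that the list as a whole was called about as often as all gene names, with a median at 9 h of 0.16. From 1 h to 6 h 2 were higher and 2 lower (background 11.4% and 12.6%), with a median of -0.01. The rises called at 9 h included Parvg (2.25 ± 0.37, adjusted P = 0.000468), the parvin of blood cells, Fermt3 (1.20 ± 0.17, adjusted P = 0.000191), the kindlin with which leukocytes switch on β2, and Ptk2b (0.60 ± 0.15, adjusted P = 0.00789), the kinase Pyk2. Parvg was well above background on 1 of 3 arrays at 0 h, so the size of its rise is uncertain. It entered the test only through other times, so its P-value is not independent of the filter on dim probes. Of the 19 listed genes well above background on all 3 arrays of 0 h, 1 was higher and 2 lower at 6 h. At 9 h 3 of these 19 were higher and 1 lower. On the other side Tns1, the tensin that ties β1 to actin, changed by -0.46 ± 0.10 (adjusted P = 0.00425), while Ptk2, focal adhesion kinase, and Pxn, paxillin, were at -0.05 and -0.05 at 9 h without a call.

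Of 15 tested ligands 10 were called in the F-test (background 34.6%), 7 rose and 2 fell at 6 h (background 12% and 13%), and 6 rose and 2 fell at 9 h against 0 h (background 15.8% and 15.4%), with a median at 9 h of 0.37. From 1 h to 6 h 6 rose and 6 fell (background 11.4% and 12.6%), with a median of -0.10. Thbs1, the matricellular thrombospondin, rose by 2.76 ± 0.38 (adjusted P = 0.000124) and Tnc, tenascin-C, by 2.0 ± 0.28 (adjusted P = 0.000132) at 9 h. Fgg, the γ chain of fibrinogen, was not well above background at 0 h and was at least 3.90-fold higher at 6 h and at least 2.85-fold higher at 9 h (adjusted P = 1.18e-05 and 4.43e-05). It entered the test only through later times at which it was bright, so these P-values are not independent of that filter. Of the 13 ligands well above background on all 3 arrays of 0 h, 5 rose at 6 h and 4 at 9 h. Icam1, the endothelial ligand of αLβ2 and αMβ2, named here after its values were seen, rose by 1.66 ± 0.18 at 6 h and, at 9 h, by 1.62 ± 0.18 (adjusted P = 2.11e-05 and 2.07e-05). Vtn, vitronectin, changed by -0.75 ± 0.16 at 9 h (adjusted P = 0.00256), and Cdh1 and Vcam1, the ligands of αEβ7 and α4β1, by -0.39 ± 0.15 and -0.22 ± 0.18 without a call at 9 h (adjusted P = 0.0528 and 0.366).

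Of 14 tested basement membrane partners 7 were called in the F-test (background 34.6%). In limma none was higher at 6 h or 9 h against 0 h, also at an unadjusted P-value under 0.05 (0 and 0), while 6 were lower at 6 h (background 13%) and 7 at 9 h (background 15.4%), and the median was -0.35 and -0.48. Against 1 h 4 were lower at 6 h (background 12.6%), with a median of -0.35. The largest falls at 9 h were those of Col4a5 (-1.20 ± 0.13, adjusted P = 1.95e-05), a chain of collagen IV, Sgce (-0.74 ± 0.13, adjusted P = 0.000624), the ε-sarcoglycan of the SC dystroglycan complex, and Agrn (-0.65 ± 0.11, adjusted P = 0.00078), agrin, which links laminin to dystroglycan. At 6 h against 1 h Col4a5 stood at 0.04 ± 0.13 (adjusted P = 0.872), and Agrn at -0.55 ± 0.11 (adjusted P = 0.00323).

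Promoters were read from RefSeq on GRCr8 for the 26 members that the table holds, over the 250 bases before the start of the gene. Those of Itgam and Itga5, which rose, and of Lamb1, which fell, are shown because the same short motifs occur in all 3. Capitals mark GAGGAA, the core bound by PU.1, a factor of myeloid cells, and GGGCGG, the GC box of Sp1, each on either strand.
Itgam, chr1:192089342-192089591 (GRCr8, + strand): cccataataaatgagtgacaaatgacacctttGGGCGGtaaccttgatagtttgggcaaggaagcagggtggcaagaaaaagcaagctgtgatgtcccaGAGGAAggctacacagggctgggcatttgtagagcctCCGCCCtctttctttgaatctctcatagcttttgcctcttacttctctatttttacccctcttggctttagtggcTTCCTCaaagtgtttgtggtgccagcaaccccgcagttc
Itga5, chr7:136381306-136381555 (GRCr8, - strand): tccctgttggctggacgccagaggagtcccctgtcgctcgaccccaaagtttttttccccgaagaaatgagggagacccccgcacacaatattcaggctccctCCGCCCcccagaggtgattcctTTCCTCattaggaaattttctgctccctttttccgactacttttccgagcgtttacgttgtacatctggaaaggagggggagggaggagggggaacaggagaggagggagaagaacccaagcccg
Lamb1, chr6:53562846-53563095 (GRCr8, + strand): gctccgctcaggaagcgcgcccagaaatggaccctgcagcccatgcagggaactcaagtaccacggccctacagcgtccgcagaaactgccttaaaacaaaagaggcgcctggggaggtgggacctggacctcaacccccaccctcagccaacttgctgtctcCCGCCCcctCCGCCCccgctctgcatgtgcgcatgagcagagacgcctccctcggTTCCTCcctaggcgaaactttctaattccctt
GAGGAA was found in 11 of the 26 member windows and in 23.3% of all 33469 promoters of the same length. In Itgam it began 151 and 39 bases before the start, in Itga5 125 and in Lamb1 32 bases before it. GGGCGG was found in 14 of 26, against 30.5% of all, and TGANTCA, the site of AP-1, in Lama3 alone, against 6.34% of all. The motifs do not overlap in the 3 windows shown. The windows of Itga1, Itga4, Itga8, Itga10, Itgb5, Itgb7, Lama1 and Lama4 held none of the 3 motifs. A match is a description of the letters only.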

How the data were processed

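Total RNA of the nerve pieces was labelled with Cy3 and hybridised to 1-colour Agilent rat arrays. For each array the authors deposited its scanner file, in which the processed signal is a linear intensity with the background subtracted (Feature Extraction 10.5.1.1 per the file headers), and a matrix of quantile-normalized log2 values, used here as an alternative. Spots marked as controls or outliers were removed, log2 processed signals were set relative to the 75th percentile of each array, and spots of a probe were averaged. The test took 32110 of 41012 probes, those well above background in every array of some time-point. All 6 time-points entered 1 model in limma 3.58.1 (R 4.3.3). Alternatives were other background corrections, scalings, filters, probes, thresholds and blocks, and each array left out in turn. The number of arrays limits the precision, and on simulated data for 6 h against 0 h with 31911 probes the fit found 57% of changes of 2-fold and 88% of changes of 4-fold. Members with all array values were those called in the F-test or the leukocyte and SC basal lamina chains called in any contrast, and from each partner list up to 3 genes per direction were named, by the change at 9 h among those called in the F-test. The printed sequences were chosen after values were seen, and no protein table was used here. The members and lists were chosen with earlier results of these data known. Gene names are those of the files, and probe coordinates are those of the files on rn4. The values of 1 tested gene are not reported here and are not drawn, though it remains in the counts and medians.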

Additional observations from a re-analysis of the deposited data

How the results depend on the processing

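Of 70 changes of members called in limma, 20 were called under every alternative fitted and 50 were lost under at least 1, 49 of them with normexp and 33 without some 1 array. The cause was not tested. With normexp the members called numbered 6 over all time-points, then 0 (0.5 h), 2 (3 h), 3 (6 h) and 8 (9 h) against 0 h, and 0 (3 h), 3 (6 h) and 4 (9 h) against 1 h. It also reversed Itga4 at 3 h against 0 h (0.35) and Itgal at 6 h and 9 h against 1 h (-0.61 and -0.62), where all gene names stood at 0.44, -0.39 and -0.40. At 1 h against 0 h 2 members were called after quantile normalization and 2 in the deposited matrix. At 0.5 h 1 was called with no filter on dim probes. At 3 h against 1 h the number was 5 in the deposited matrix, 6 with the filter on all 18 arrays, 5 with the scan day as a block, 7 with a trended and robust prior and 6 with any probe of a gene. Asking for a change of at least 2-fold, which by construction leaves fewer calls, left 3 over all time-points, 0, 0, 0, 2 and 2 from 0.5 h to 9 h against 0 h, and 4 and 4 at 6 h and 9 h against 1 h. Without 1 array the counts ran from 13 to 19 over all time-points, 0 to 2 (0.5 h), 1 to 1 (1 h), 2 to 5 (3 h), 7 to 15 (6 h) and 11 to 16 (9 h) against 0 h, and 0 to 5, 13 to 16 and 12 to 18 at 3, 6 and 9 h against 1 h. The lowest count at 6 h came without 6 h replicate 2 and that at 3 h against 1 h without 1 h replicate 1. The median of all gene names moved by over 0.1 with normexp (0.29 and 0.44 at 1 h and 3 h against 0 h, and 0.17, -0.35 and -0.39 at 3, 6 and 9 h against 1 h), with a shift to the array median (-0.16, -0.15, -0.14 and -0.17 at 0.5, 1, 6 and 9 h against 0 h), and at 6 h against 0 h after quantile normalization and in the deposited matrix (-0.11 each).

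With the replicate number as a block the counts were 16 over all time-points, 2, 1, 4, 11 and 16 against 0 h, and 4, 15 and 17 against 1 h. Of 45 pairs of arrays with the same number 22 correlated above 0.1 in their deviations (-0.26 to 0.564), so the numbers were not taken as pairs. The scan day as a block gave no value against 0 h beyond 0.5 h.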
